A study of Mus musculus with 9 samples.

Results

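The genes described here are 9 regulators and effectors of the response of skeletal muscle to loss of its nerve: Hdac4, Hdac9, Dach2, Myog, Runx1, Gadd45a, Ncam1, Nnat and Gdf5. They were chosen by name, as the rows of the deposited count table that carry these symbols, and all 9 were found among 56791 genes. All 9 passed the filter on low counts, which kept 17534 genes. Gdf5 passed it only through the aged libraries, with GB or vehicle, where it was higher than in young ones. The choice used no measured value of its own, but earlier results of these data were known when it was made. No group of the study was denervated, and the list name refers to what these genes are known for.

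RNA was sequenced from the gastrocnemius, a calf muscle, of female mice in 3 groups of 3 libraries. Aged mice were given ginkgolide B (GB) at 12 mg per kg body weight, aged mice were given vehicle, and young mice were given vehicle. GB is a compound of ginkgo leaves known to block the receptor for platelet activating factor, the vehicle was saline, and all 3 groups were dosed daily by mouth for 2 months. The vehicle titles hold 23M for aged and 3M for young mice, the GB titles hold no such value, and no strain is given in the labels.

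When a motor nerve is cut, muscle fibres lose their electrical activity and switch on a set of genes that activity otherwise keeps low. The histone deacetylase gene Hdac4 is induced in denervated mouse muscle. Its product represses Dach2, itself a repressor of the transcription factor gene Myog, and myogenin then activates genes of the acetylcholine receptor and of muscle wasting. Hdac9, a relative of Hdac4, and Dach2 are known as genes whose transcripts decline after denervation in mice, while Runx1, Gadd45a, Ncam1 and Gdf5 are known as genes that denervation raises.

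Total counts were 39478427 to 44294097 in the GB libraries, 52068522 to 54095457 in the aged vehicle libraries and 51543383 to 61680520 in the young vehicle libraries. Mitochondrially encoded genes took 24.3 to 26.1% of counts in GB libraries, 13.9 to 15.3% in those of aged vehicle mice and 8.60 to 10.2% in those of young mice. Genes with a count numbered 18678 to 19362 with GB, and 22868 to 23045 and 22616 to 24185 in the aged and young vehicle libraries. The labels give no batch, and preparation and treatment cannot be told apart. All 10 defining markers of muscle fibres were tested, and none was at 0 in any group. With GB over aged vehicle 7 of them rose and 1 fell, and their summed level was 192885 to 226653 CPM in GB, 113180 to 127575 CPM in aged vehicle and 152112 to 164342 CPM in young vehicle libraries, and its part in the results was not tested. Levels are CPM scaled by TMM factors, which put the libraries on a common scale, given for replicates 1, 2 and 3 in that order. In whole muscle, fewer cells of a type and less RNA per cell cannot be told apart.

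Against aged vehicle, 5 of the 9 genes changed with GB. Gadd45a, Ncam1 and Nnat rose, and Hdac9 and Dach2 fell, by edgeR's quasi-likelihood test at an adjusted p under 0.05. Of all genes tested 53.2% were called in this comparison, 24.4% higher and 28.8% lower, so the share of the 9 genes called, 55.6%, was near the background. Against young vehicle, aged vehicle muscle had 3 of the 9 called, Dach2, Gadd45a and Gdf5, all higher. There the background was 8.6% of genes called, 4.32% higher and 4.28% lower. Between GB and young vehicle muscle 7 of the 9 were called, 5 higher and 2 lower, where 53.6% of all genes were called, 24.7% higher and 29% lower. These shares are also the background for the counts of markers and related genes called in the same comparisons. No such share was counted for unadjusted p-values.

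**Figure D1:**
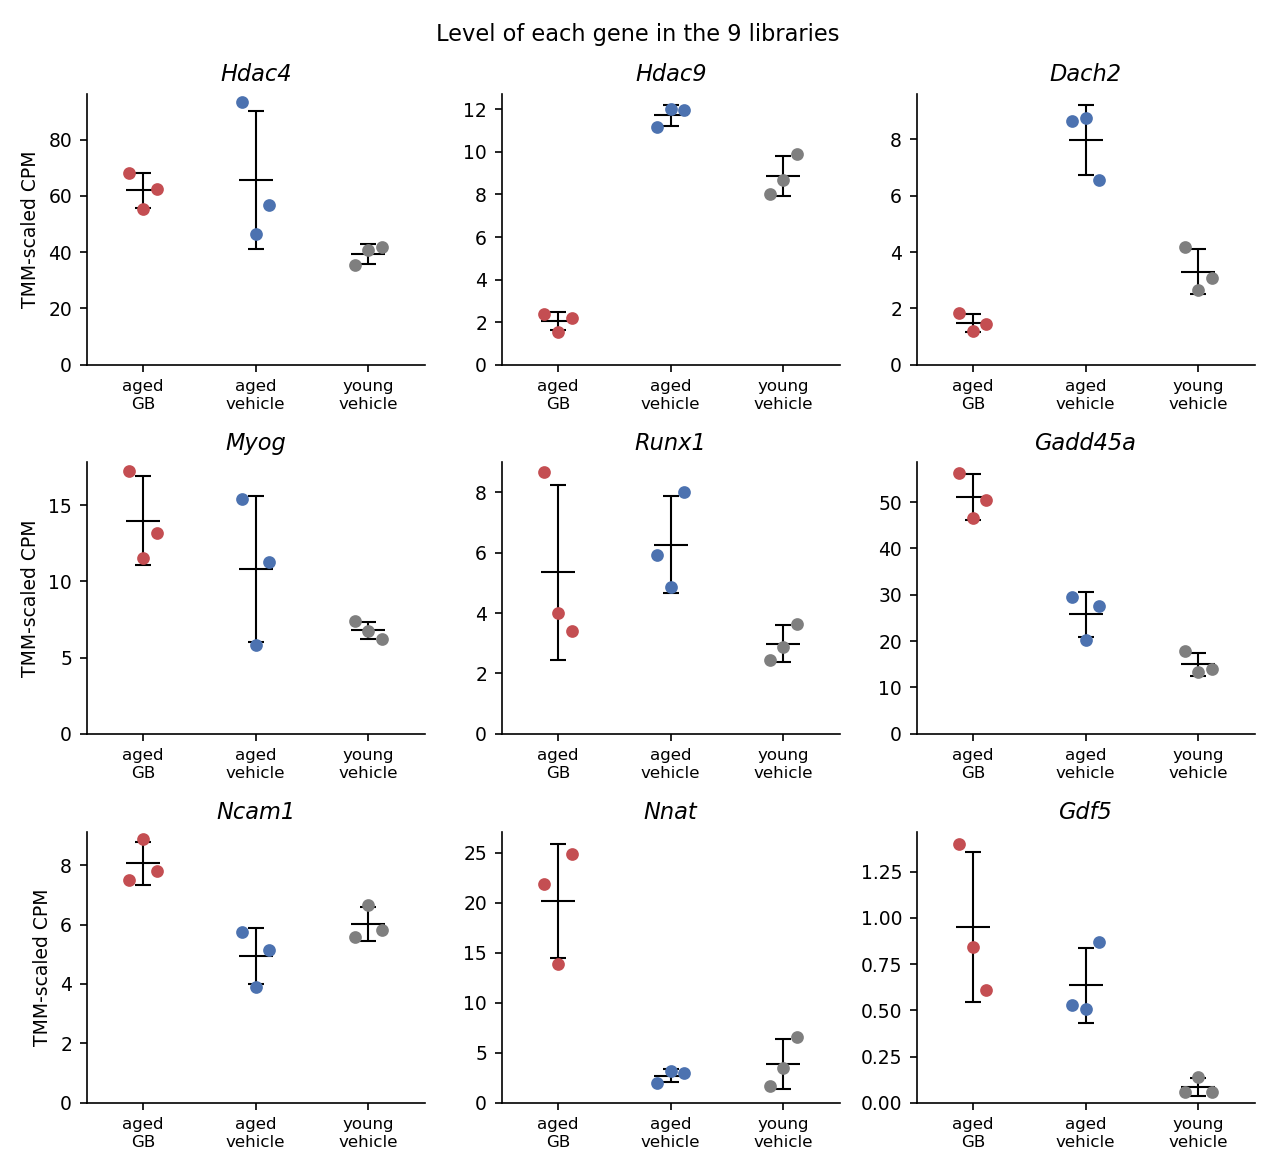
Each panel plots the TMM-scaled CPM of 1 gene (y axis, from 0) in the 3 libraries of each group, with points for libraries and a bar with whiskers for the mean ± SD. Hdac9 and Dach2 stand lowest in the 3 GB libraries, Nnat and Gadd45a stand highest there, and Gdf5 stands lowest in the 3 young vehicle libraries.

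Hdac4 encodes a class II histone deacetylase that moves between cytoplasm and nucleus with nerve activity. Hdac4 was at 68.0, 55.4 and 62.5 CPM in GB libraries, at 93.5, 46.6 and 56.9 CPM in aged vehicle libraries and at 35.3, 40.8 and 41.7 CPM in young vehicle libraries. The GB and aged vehicle libraries overlapped, both lay above the young ones, and aged vehicle replicate 1 stood well above the other 8 libraries. The log2 fold change of aged over young vehicle was 0.74 (SE 0.22, edgeR adjusted p = 0.0642), and without aged vehicle replicate 1 it was 0.40 (edgeR adjusted p = 0.0949). DESeq2 called Hdac4 with age (adjusted p = 0.00475), and its edgeR adjusted p was also under the threshold without aged vehicle replicate 2 (0.015) and with library totals (0.041). Hdac4 rose in GB over young vehicle libraries by 0.66 (SE 0.22, edgeR adjusted p = 0.0266). That call was lost without any single library of those groups except GB replicate 2 (edgeR adjusted p of 0.0559 to 0.117), with library totals (0.672) and with no filter on low counts (0.144). With an offset for each gene's length, which removes the trend of level on length within each library, the value was 1.40 (edgeR adjusted p = 0.000254).

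Hdac9 encodes another class II histone deacetylase, whose short form, known as MITR, lacks the catalytic domain and represses MEF2 factors. Hdac9 was at 2.38, 1.56 and 2.18 CPM in GB libraries, at 11.2, 12.0 and 12.0 CPM in aged vehicle libraries and at 8.02, 8.69 and 9.89 CPM in young vehicle libraries. The 3 groups did not overlap, with GB lowest and aged vehicle highest. With GB, Hdac9 fell by 2.52 on the log2 scale against aged vehicle (SE 0.19, edgeR adjusted p = 2.28e-07), 0.174 times its level there. It fell by 2.12 against young vehicle (SE 0.18, edgeR adjusted p = 9.45e-07), and by 1.40 there with the length offset (edgeR adjusted p = 6.44e-05). The difference of aged from young vehicle was 0.40 on the log2 scale (SE 0.17, edgeR adjusted p = 0.171) and was not called.

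Dach2 encodes a transcriptional corepressor of the dachshund family that keeps Myog low in innervated mouse muscle. Dach2 was at 1.84, 1.20 and 1.44 CPM in GB libraries, at 8.64, 8.76 and 6.55 CPM in aged vehicle libraries and at 4.20, 2.65 and 3.07 CPM in young vehicle libraries. As with Hdac9, the 3 groups did not overlap and stood in the same order, with GB below young vehicle and young vehicle below aged vehicle. With GB, Dach2 fell by 2.42 on the log2 scale against aged vehicle (SE 0.26, edgeR adjusted p = 5.61e-06). Against young vehicle, Dach2 rose by 1.27 in aged vehicle libraries (SE 0.24, edgeR adjusted p = 0.00578) and fell by 1.15 in GB libraries (SE 0.25, edgeR adjusted p = 0.00206). With the length offset the value of GB over young vehicle was -0.58 and was not called (edgeR adjusted p = 0.0751).

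Among the 9 genes, Hdac9 and Dach2 were each other's closest in pattern, though Myog and Hdac4 were a closer pair. The root mean square difference of the centred log2 CPM of Hdac9 and Dach2 over the 9 libraries was 0.51. Of all genes tested with a named symbol, Uqcrc2, a core subunit of respiratory complex III, was closest to Hdac9 (0.099 log2 units). Uqcrc2 averaged 68.5 CPM in GB, 418 CPM in aged vehicle and 317 CPM in young vehicle libraries. Pakap was closest to Dach2 (0.26), with 22.6, 93.5 and 49.0 CPM in the same order of groups. Over all 14520 candidate genes, the median difference was 1.16 from Hdac9 and 1.08 from Dach2. Each closest gene was picked as the lowest of all candidates, so it lies below the median by the search itself. For Myog and Hdac4 the difference was 0.29. The genes closest to Hdac4, Runx1 and Ncam1 were Lpin3 (0.14), Dusp29 (0.28) and Reps1 (0.11), and those closest to Nnat and Gdf5 were Cfap126 (0.41) and Spink11 (0.38).

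The promoters of Hdac9 and Dach2 are shown because these genes fell together in the GB libraries, and that of Myog because it is known as a target of Dach2. RefSeq lists 2 start regions for Hdac9 and 2 for Dach2 on GRCm38.p6. Each sequence is 300 bases long, 250 before to 50 after the start, read 5′ to 3′ on the strand of the gene. Capitals mark E-boxes (CANNTG, which reads the same on both strands), the motif that myogenin and its relatives bind.
Hdac9, chr12:34917046-34917345, minus strand: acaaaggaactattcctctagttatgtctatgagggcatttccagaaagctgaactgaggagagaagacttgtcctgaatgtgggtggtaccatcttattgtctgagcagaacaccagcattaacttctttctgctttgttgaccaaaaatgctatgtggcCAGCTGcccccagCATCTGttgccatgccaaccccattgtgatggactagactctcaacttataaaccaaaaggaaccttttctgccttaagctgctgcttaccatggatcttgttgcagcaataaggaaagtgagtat
Hdac9, chr12:34528840-34529139, minus strand: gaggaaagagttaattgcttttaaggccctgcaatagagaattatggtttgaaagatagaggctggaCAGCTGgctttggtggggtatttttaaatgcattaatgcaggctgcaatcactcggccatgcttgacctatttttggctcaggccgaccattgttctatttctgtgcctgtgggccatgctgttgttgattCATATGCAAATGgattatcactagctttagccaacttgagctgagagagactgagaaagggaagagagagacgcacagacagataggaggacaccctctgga
Dach2, chrX:113297260-113297559, plus strand: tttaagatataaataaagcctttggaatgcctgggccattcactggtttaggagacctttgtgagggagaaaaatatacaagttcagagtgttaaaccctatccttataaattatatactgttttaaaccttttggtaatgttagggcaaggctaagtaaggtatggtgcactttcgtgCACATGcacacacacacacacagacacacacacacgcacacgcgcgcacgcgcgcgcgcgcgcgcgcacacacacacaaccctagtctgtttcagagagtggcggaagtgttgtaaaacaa
Dach2, chrX:113298006-113298305, plus strand: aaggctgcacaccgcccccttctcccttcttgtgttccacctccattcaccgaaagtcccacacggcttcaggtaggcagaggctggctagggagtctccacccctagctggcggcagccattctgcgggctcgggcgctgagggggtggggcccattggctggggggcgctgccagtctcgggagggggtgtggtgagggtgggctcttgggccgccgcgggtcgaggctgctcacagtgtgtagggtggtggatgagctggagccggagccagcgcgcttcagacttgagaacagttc
Myog, chr1:134289754-134290053, plus strand: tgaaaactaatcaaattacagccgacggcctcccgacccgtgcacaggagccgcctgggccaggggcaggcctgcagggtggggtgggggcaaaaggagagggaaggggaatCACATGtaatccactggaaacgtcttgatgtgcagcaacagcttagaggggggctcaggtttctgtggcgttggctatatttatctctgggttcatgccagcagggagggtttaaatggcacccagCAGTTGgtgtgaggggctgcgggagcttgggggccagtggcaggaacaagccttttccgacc
The table held 10 promoters for 7 of the 9 genes, and none was used here for Ncam1 and Gdf5. E-boxes were found in 6 of the 10, against 72.3% of all 32851 promoters of the same length. The MEF2 consensus was found in 0 of the 10, against 3.19% of all promoters, and the RUNX core TGTGGT on either strand in 2 of the 10, against 16.8%. The MEF2 consensus searched was YTAWWWWTAR (Y is C or T, W is A or T, R is A or G), with no mismatch allowed. Sequences that differ from that pattern in 1 base were not counted. Among them are ctatatttat in the Myog promoter, ctatttttgg in an Hdac9 region and atataaataa in a Dach2 region. How many of all promoters hold such near matches was not counted either. Myog had E-boxes starting 138 and 12 bases before its start, Hdac9 had 2 and 3 in its start regions, and Dach2 had 1 and 0. A match describes these letters and not a bound site.

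Myog encodes myogenin, the basic helix-loop-helix factor that activates acetylcholine receptor genes in denervated muscle. Myog was at 17.2, 11.6 and 13.2 CPM in GB libraries, at 15.4, 5.81 and 11.3 CPM in aged vehicle libraries and at 7.37, 6.75 and 6.25 CPM in young vehicle libraries. The GB libraries lay above all young ones, while the aged vehicle libraries spread 2.65-fold and overlapped both other groups. Myog rose in GB over young vehicle libraries by 1.04 on the log2 scale (SE 0.29, edgeR adjusted p = 0.0102). The call was lost without GB replicate 1 (edgeR adjusted p = 0.0551), with library totals (0.154) and with an offset for gene length (log2 fold change 0.41, edgeR adjusted p = 0.276). The log2 fold change was 0.37 for GB over aged vehicle (SE 0.29, edgeR adjusted p = 0.303) and turned to -0.29 with the length offset and -0.18 with library totals. For aged over young vehicle it was 0.67 (SE 0.29, edgeR adjusted p = 0.192). Without aged vehicle replicate 2, the lowest of its group, that value was 0.97 and was called (edgeR adjusted p = 0.0188), and without aged vehicle replicate 1 it was 0.33. The gene closest to Myog in pattern was Hes1, a target of Notch signalling (0.26 log2 units, picked as the lowest of all candidates, whose median was 0.73).

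Runx1 encodes a runt-domain transcription factor that is induced on denervation and limits wasting in mice. Runx1 was at 8.68, 3.99 and 3.39 CPM in GB libraries, at 5.93, 4.86 and 8.03 CPM in aged vehicle libraries and at 2.44, 2.86 and 3.64 CPM in young vehicle libraries. All aged vehicle libraries lay above the young ones. GB replicate 1 was 2.56 times as high as GB replicate 3, which fell within the young range. The log2 fold change of GB over aged vehicle was -0.23 (SE 0.33, edgeR adjusted p = 0.591). It was -0.77 without GB replicate 1 and then called (edgeR adjusted p = 0.0297), 0.0063 without GB replicate 3 and 0.50 with the length offset. For GB over young vehicle it was 0.84 (SE 0.34, edgeR adjusted p = 0.0517), and 0.30 without GB replicate 1. It was called without GB replicate 2 (1.01, edgeR adjusted p = 0.0453) or replicate 3 (1.08, edgeR adjusted p = 0.0205), and with the length offset (1.50, edgeR adjusted p = 0.00416). DESeq2 (adjusted p = 0.0302) and a filter of 1 CPM in 3 libraries (edgeR adjusted p = 0.0406) also called it. For aged over young vehicle it was 1.07 (SE 0.33, edgeR adjusted p = 0.0685), which DESeq2, limma-voom, a fit of these 2 groups alone and a fit with no filter on low counts called. Runx1 is also expressed by leukocytes. Of 12 leukocyte markers 1 rose and 2 fell with GB over aged vehicle, and their summed level was 93.4 to 112 CPM in GB, 114 to 142 CPM in aged vehicle and 111 to 221 CPM in young vehicle libraries. Their part in the Runx1 values was not tested.

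Gadd45a encodes a small stress-induced nuclear protein that promotes muscle atrophy downstream of HDAC4 in mice. Gadd45a was at 56.4, 46.6 and 50.4 CPM in GB libraries, at 29.6, 20.2 and 27.5 CPM in aged vehicle libraries and at 17.8, 13.3 and 13.9 CPM in young vehicle libraries. The 3 groups did not overlap, with GB above aged vehicle and aged vehicle above young vehicle. Gadd45a rose in GB over aged vehicle libraries by 0.99 on the log2 scale (SE 0.15, edgeR adjusted p = 0.000157), and by 0.43 both with the length offset (edgeR adjusted p = 0.0445) and with library totals (edgeR adjusted p = 0.0334). It rose in aged over young vehicle libraries by 0.78 (SE 0.15, edgeR adjusted p = 0.00843) and in GB over young vehicle libraries by 1.77 (SE 0.16, edgeR adjusted p = 1.21e-06). It was the only gene of the 9 called in all 3 comparisons besides Dach2, whose directions differed. The gene closest in pattern was Pde9a, a cyclic GMP phosphodiesterase (0.17 log2 units), with 3.22, 1.63 and 0.955 CPM in GB, aged vehicle and young vehicle libraries. Its promoter is shown because Gadd45a rose in every comparison, with its E-box in capitals.
Gadd45a, chr6:67037358-67037657, minus strand: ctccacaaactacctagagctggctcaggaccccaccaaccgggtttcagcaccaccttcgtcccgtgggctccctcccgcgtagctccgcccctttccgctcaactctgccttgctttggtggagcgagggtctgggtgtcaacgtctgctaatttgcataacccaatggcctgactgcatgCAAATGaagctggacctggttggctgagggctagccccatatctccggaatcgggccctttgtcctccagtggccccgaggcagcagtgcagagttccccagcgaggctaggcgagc
That E-box starts 67 bases before the start of the gene, and neither the MEF2 consensus nor the RUNX core was in these letters. An unstranded count could not separate Gadd45a from E230016M11Rik, a transcript on the opposite strand whose exons overlap it in GENCODE, and the use of strand is not given in the sources used here.

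Ncam1 encodes the neural cell adhesion molecule, which spreads over the fibre surface after denervation and is also made by Schwann and satellite cells. Ncam1 was at 7.50, 8.88 and 7.81 CPM in GB libraries, at 5.75, 3.90 and 5.14 CPM in aged vehicle libraries and at 5.57, 6.65 and 5.83 CPM in young vehicle libraries. The GB libraries lay above the other 6, and the aged and young vehicle libraries overlapped. Ncam1 rose in GB over aged vehicle libraries by 0.71 on the log2 scale (SE 0.18, edgeR adjusted p = 0.00575). The value was 0.15 with library totals, where the call was lost (edgeR adjusted p = 0.499), and 1.23 with the length offset. For GB over young vehicle it was 0.42 (SE 0.18, edgeR adjusted p = 0.0668), called with the length offset (0.92, edgeR adjusted p = 0.00107) and turned to -0.14 with library totals. A filter of 1 CPM in 3 libraries also called it (edgeR adjusted p = 0.0409). For aged over young vehicle it was -0.29 (SE 0.18, edgeR adjusted p = 0.392). Of 13 Schwann and nerve markers tested 6 rose and 1 fell with GB over aged vehicle, and the 14 listed summed to 174 to 280 CPM in GB, 125 to 137 CPM in aged vehicle and 240 to 447 CPM in young vehicle libraries. Among 10 satellite cell markers 3 rose and 1 fell with GB over aged vehicle. Des, which fibres also express highly, made up most of their sum and averaged 7659 CPM in GB and 2620 CPM in aged vehicle libraries. The other 9 summed to 139 to 142 CPM in GB, 136 to 156 CPM in aged vehicle and 124 to 143 CPM in young vehicle libraries, and so overlapped. The part of these cells in the Ncam1 values was not tested.

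Nnat encodes neuronatin, a small membrane proteolipid made from the paternal allele. Nnat was at 21.9, 13.8 and 24.8 CPM in GB libraries, at 2.02, 3.19 and 2.96 CPM in aged vehicle libraries and at 1.64, 3.45 and 6.55 CPM in young vehicle libraries. Every GB library lay above every vehicle library, and the young vehicle libraries spread 3.99-fold. Nnat rose in GB over aged vehicle libraries by 2.89 on the log2 scale (SE 0.46, edgeR adjusted p = 0.000528), a 7.40-fold difference, and by 2.38 over young vehicle libraries (SE 0.45, edgeR adjusted p = 0.0015). For aged over young vehicle the log2 fold change was -0.51 (SE 0.44, edgeR adjusted p = 0.567), and 0.10 without young vehicle replicate 3. Neuronatin is also expressed in adipocytes. Of 8 adipocyte markers 6 rose and 1 fell with GB over aged vehicle and 4 rose and 0 fell with GB over young vehicle, and their summed level was 637 to 863 CPM in GB, 259 to 295 CPM in aged vehicle and 279 to 445 CPM in young vehicle libraries. Fabp4 made up most of the sum in GB libraries and averaged 502 CPM in GB, 211 CPM in aged vehicle and 156 CPM in young vehicle libraries. The other 7 summed to 189 to 349 CPM in GB, 54.5 to 79.7 CPM in aged vehicle and 160 to 268 CPM in young vehicle libraries. Without Fabp4, the GB and young vehicle sums thus overlapped. The part of adipocytes in the Nnat values was not tested. Nnat lies within the Blcap gene on the opposite strand, with no exon overlap in GENCODE.

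Gdf5 encodes a ligand of the bone morphogenetic protein (BMP) family that restrains wasting of denervated mouse muscle. Gdf5 was the scarcest of the 9 by CPM, with raw counts of 44, 28 and 19 in GB libraries, 30, 32 and 53 in aged vehicle libraries and 4, 8 and 4 in young vehicle libraries. Scaled to library size, they were 1.40, 0.840 and 0.608 CPM with GB, 0.528, 0.505 and 0.870 CPM in aged vehicle and 0.0591, 0.139 and 0.0576 CPM in young vehicle libraries. All GB and aged vehicle libraries lay above the young ones, and the GB and aged vehicle libraries overlapped. The young vehicle counts were under the filter's minimum count of 10, so Gdf5 was tested only because of its higher level in the other groups. Its calls against young vehicle are to be read with that limit. Gdf5 rose in aged over young vehicle libraries by 2.88 on the log2 scale (SE 0.61, edgeR adjusted p = 0.0121). With no filter on low counts it rose by 2.89 (edgeR adjusted p = 0.00793). The call was lost without young vehicle replicate 3 (2.67, edgeR adjusted p = 0.07) and without aged vehicle replicate 3 (2.58, edgeR adjusted p = 0.0671). In GB over young vehicle libraries it rose by 3.46 (SE 0.63, edgeR adjusted p = 0.000487), and for GB over aged vehicle the value was 0.58 (SE 0.54, edgeR adjusted p = 0.397). Tendon and connective tissue also express Gdf5. Of their 11 markers 0 rose and 3 fell in aged over young vehicle libraries, where 4 had an unadjusted p under 0.05, and in GB over young vehicle libraries 1 rose and 9 fell. Their summed level was 475 to 623 CPM in GB, 841 to 1143 CPM in aged vehicle and 1057 to 2001 CPM in young vehicle libraries. Their part in the Gdf5 values was not tested.

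**Figure D2:**
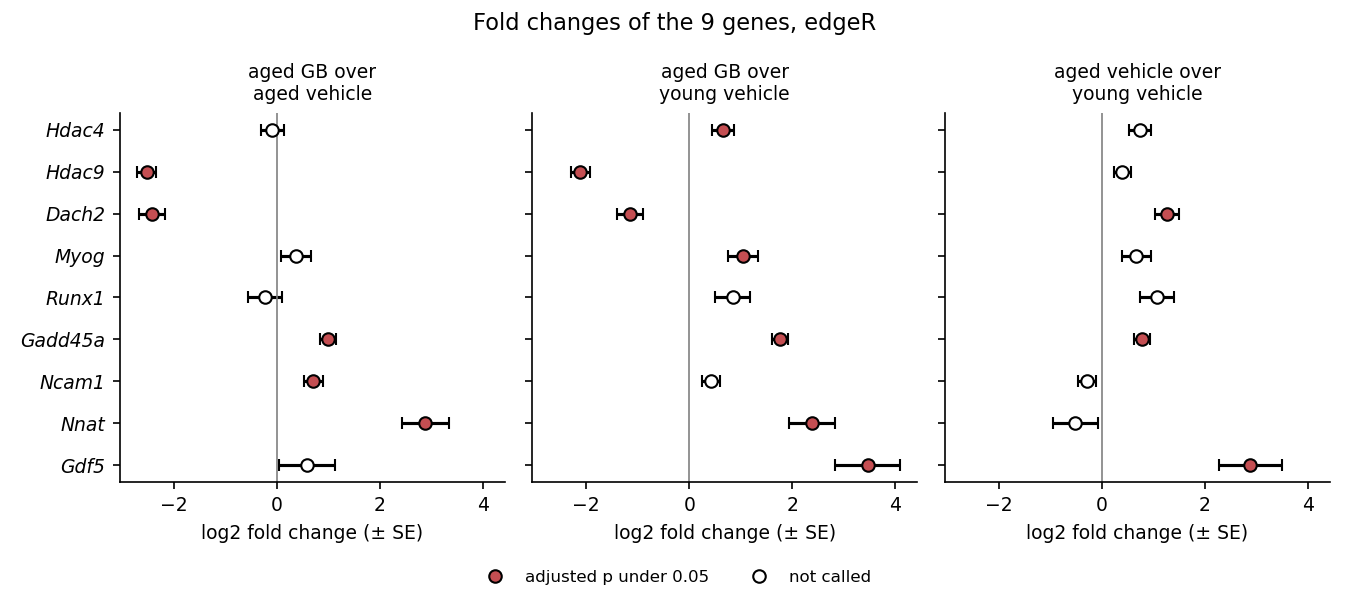
The log2 fold change (x axis) with its SE is plotted for each of the 9 genes (y axis) in the 3 comparisons, filled where edgeR's adjusted p was under 0.05. Hdac9 and Dach2 lie at -2.52 and -2.42 with GB over aged vehicle, and Gdf5 lies at 2.88 in aged over young vehicle.

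The 9 genes differed widely in level per length. In TMM-scaled CPM per kilobase of gene length (RPKM), Gadd45a was highest in each group, with means of 29.0 ± 2.78 in GB, 14.6 ± 2.80 in aged vehicle and 8.51 ± 1.40 in young vehicle libraries (SD, n = 3 each). Nnat was next with GB, at 11.0 ± 3.11 RPKM, and Myog followed at 9.36 ± 1.95 RPKM, where their ranges overlapped. In aged vehicle libraries Myog averaged 7.24 ± 3.21 and Hdac4 4.15 ± 1.56 RPKM, with overlapping ranges, and in young vehicle libraries Myog, at 4.54 ± 0.377 RPKM, lay above Hdac4, at 2.48 ± 0.219 RPKM. Hdac9 and Dach2 were the lowest of the 9 with GB, at 0.137 ± 0.0288 and 0.151 ± 0.0329 RPKM with overlapping ranges. In young vehicle libraries Gdf5 was lowest, at 0.0367 ± 0.0200 RPKM.

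The libraries of 6 genes did not overlap between aged and young vehicle, namely Hdac4, Hdac9, Dach2, Runx1, Gadd45a and Gdf5, all higher with age, where 34.4% of all genes tested did not overlap, 17.5% higher and 16.9% lower. Between GB and aged vehicle libraries 5 genes did not overlap, 3 higher and 2 lower, where 59.7% of all genes did not, 27.3% higher and 32.5% lower. Between GB and young vehicle libraries 8 genes did not overlap, 6 higher and 2 lower, where 60.7% of all genes did not, 27.5% higher and 33.2% lower. The median log2 fold change of the 9 genes was 0.74 in aged over young vehicle, against -0.0022 over all genes tested. In GB over aged vehicle the median of the 9 was 0.37, against -0.051. These 2 comparisons share the aged vehicle libraries.

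Gene length moved with the fold changes of the GB comparison. The 5 genes Hdac4, Hdac9, Runx1, Dach2 and Ncam1 are 15813, 14838, 12025, 9868 and 8664 bases long in the deposited table, and the other 4 are 1495 to 2320 bases long. Over the 2606 genes tested that are longer than 8000 bases, the median log2 fold change of GB over aged vehicle was -0.67 and 59% were called lower. Of those long genes 3.49% had a lower value than Hdac9 and 4.03% a lower value than Dach2. Ncam1, called higher, exceeded all but 4.72% of them. For the 3338 genes of more than 500 and up to 2000 bases, the median for GB over aged vehicle was 0.66 and 41.7% were called higher. Of these short genes 61.9% had a lower value than Gadd45a, 41% than Myog and 97.1% than Nnat. With the length offset Hdac9 fell by 1.71 (edgeR adjusted p = 1.3e-05) and Dach2 by 1.81 (edgeR adjusted p = 7.98e-05) against aged vehicle. Hdac4, at -0.08 (SE 0.22, edgeR adjusted p = 0.774) without it, was at 0.77 with the offset and called higher (edgeR adjusted p = 0.00975), but at -0.64 with library totals and called lower (edgeR adjusted p = 0.0151). In aged over young vehicle the median of the long genes was 0.052 and the offset changed none of the calls of the 9 genes.

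**Figure D3:**
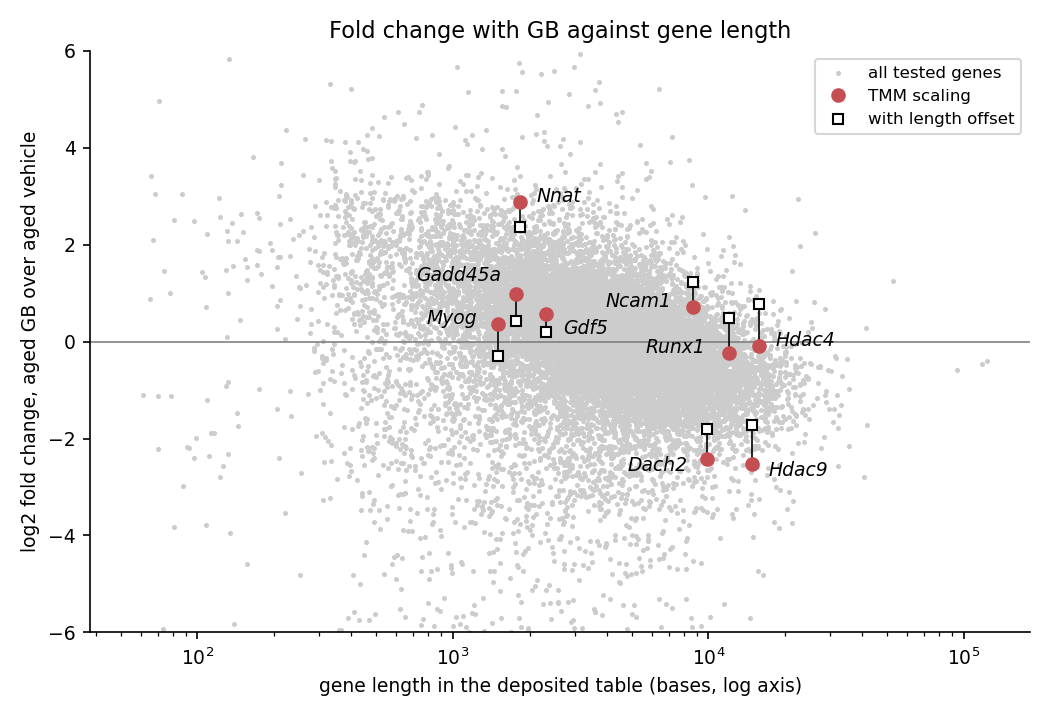
The log2 fold change of GB over aged vehicle (y axis) is plotted against gene length in bases (x axis, log scale), with grey points for all tested genes but 294 that lie more than 6 log2 units from 0. Red circles are the 9 genes as reported and open squares the same genes with the length offset. The long genes Hdac4, Runx1 and Ncam1 move up with the offset, to 0.77, 0.50 and 1.23, and Hdac9 and Dach2 stay below 0 at -1.71 and -1.81.

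Of 12 family members of the 9 genes that were tested, 1 was called in aged over young vehicle libraries, a share near the 8.6% of all genes, and 4 had an unadjusted p under 0.05. The called gene was Dach1, the paralog of Dach2, which rose by 0.64 (SE 0.17, edgeR adjusted p = 0.0415), a call lost without any single library of these groups (edgeR adjusted p of 0.0749 to 0.142) and in the fit with a replicate block (0.055). Dach1 was at 3.94, 3.66 and 5.18 CPM in GB libraries, at 9.13, 7.83 and 8.95 CPM in aged vehicle libraries and at 5.05, 5.71 and 5.87 CPM in young vehicle libraries. With GB over aged vehicle Dach1 fell by 1.02 (SE 0.18, edgeR adjusted p = 0.000418). With GB 9 of the 12 were not called over aged vehicle and 9 over young vehicle. The shares of all genes called there were 53.2% and 53.6%. The myogenic factor genes Myf5 and Myf6 rose with GB over aged vehicle by 1.46 (SE 0.34) and 1.45 (SE 0.11). Myf6, which encodes MRF4 of mature fibres, was at 182, 139 and 158 CPM with GB and at 51.7, 62.4 and 60.4 CPM in aged vehicle libraries, and it rose by 1.62 (SE 0.11) in GB over young vehicle libraries. With the length offset Myf6 rose by 0.72 over aged and 0.91 over young vehicle, and Dach1 fell by 0.61 against aged vehicle. With library totals Myf6 rose by 0.89 and 1.07 in these comparisons, while Myf5 rose by 0.88 and Dach1 fell by 1.59 against aged vehicle. Gadd45g, a paralog of Gadd45a, rose in GB over young vehicle libraries by 3.05 (SE 0.71, edgeR adjusted p = 0.0102), with 199, 259 and 225 CPM against 58.6, 12.3 and 11.8 CPM. In aged vehicle libraries Gadd45g was at 178, 116 and 93.3 CPM, already above the young ones. Over aged vehicle its change with GB was 0.82 (SE 0.66, edgeR adjusted p = 0.34) and was not called. Hdac7, another class II deacetylase gene, fell by 0.39 in GB over young vehicle libraries (SE 0.14) and by 0.95 with library totals. That call was lost with the length offset (edgeR adjusted p = 0.942) and without young vehicle replicate 1 or 3 or GB replicate 3 (0.0676 to 0.0852).

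Of 13 genes that myogenin or class II deacetylases control, 2 rose and 0 fell in aged over young vehicle libraries. They were Chrng, the fetal acetylcholine receptor subunit, and Mymx, a micropeptide of myoblast fusion, which rose by 5.40 (SE 0.87) over 4 counts in the young group. Chrng was at 1.21, 1.74 and 0.128 CPM in GB libraries, at 2.27, 0.711 and 2.12 CPM in aged vehicle libraries and at 0.0295, 0 and 0.101 CPM in young vehicle libraries, with 9 counts in the young group. It rose by 5.16 with age (SE 1.03, edgeR adjusted p = 0.00963), a call that limma-voom did not make (adjusted p = 0.0566). Like Gdf5, Chrng and Mymx passed the filter on low counts only through libraries outside the young group. With GB over aged vehicle 2 rose and 1 fell, namely the receptor subunit genes Chrne (0.62, SE 0.17) and Chrnb1 (0.51, SE 0.14), and Chrnd (-1.01, SE 0.29). Of these, 0 were called higher with the length offset or library totals. Chrnb1 turned to -0.06 with library totals, and Chrnd was then at -1.57. The Chrnb1 and Chrnd calls were also lost without aged vehicle replicate 2 (edgeR adjusted p = 0.0504) and replicate 1 (edgeR adjusted p = 0.0544). In GB over young vehicle libraries 6 rose and 1 fell, and Mymx rose by 6.01 (SE 0.88), Chrng by 4.44 (SE 1.03), Mymk, its partner in fusion, by 2.68 (SE 0.90) and Trim63, an atrophy ubiquitin ligase, by 1.38 (SE 0.44). Only 3 were called higher with library totals or the length offset, the Mymk and Trim63 calls were lost with both, and Trim63 was lost in 9 alternatives in all. Of all 17534 genes 2117 were called higher with library totals and 4267 with the length offset in this comparison. In aged over young vehicle 5 of the 13 had an unadjusted edgeR p under 0.05. The list median was 0.46 in aged over young vehicle and 0.11 in GB over aged vehicle. By comparison, 8.6% of all genes were called with age, 53.2% with GB over aged vehicle and 53.6% with GB over young vehicle.

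Among 20 MEF2 factors and partners or kinases of the class II deacetylases, 0 rose and 1 fell in aged over young vehicle libraries. It was Ywhae, a 14-3-3 protein that holds phosphorylated deacetylases in the cytoplasm, which fell by 0.33 (SE 0.07, edgeR adjusted p = 0.00922), a call lost without aged vehicle replicate 2 (0.0547). With age 6 of the 20 had an unadjusted edgeR p under 0.05. With GB over aged vehicle 2 rose and 11 fell, with a list median of -0.57 against -0.051 over all genes, and the number lower was 4 with the length offset. With library totals 0 were called higher and 14 lower. Of all 17534 genes 4176 were called lower with the length offset. With library totals 2030 were called higher and 8421 lower. As scaled by TMM, 24.4% of all genes were called higher and 28.8% lower in this comparison, and 8.6% were called with age. Mef2d, a MEF2 transcription factor, fell by 1.28 (SE 0.10), with 115, 109 and 96.2 CPM in GB and 295, 246 and 234 CPM in aged vehicle libraries. The corepressor gene Ncor1 fell by 1.27 (SE 0.10), and Six4 and Eya1, whose products act together as activators of muscle genes, fell by 1.28 (SE 0.18) and 1.10 (SE 0.15). The same 4 genes fell in GB over young vehicle libraries, by 1.17 for Mef2d, 1.40 for Ncor1, 1.50 for Six4 and 1.12 for Eya1. With the length offset Ncor1, Six4 and Eya1 fell by 0.53, 0.64 and 0.64 against aged vehicle and by 0.73, 0.91 and 0.68 against young vehicle. With library totals Eya1 fell by 1.66 and 1.69 in these comparisons.

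Of 24 tested genes of the BMP pathway through which Gdf5 acts, 1 rose and 0 fell in aged over young vehicle libraries. It was the ligand gene Bmp6, which rose by 1.00 (SE 0.12, edgeR adjusted p = 0.000462), with 37.9, 32.1 and 35.8 CPM in aged and 16.5, 18.1 and 18.2 CPM in young vehicle libraries. With age 11 of the 24 had an unadjusted edgeR p under 0.05, and the list median was 0.27 against -0.0022 over all genes. With GB over aged vehicle 3 rose and 11 fell (list median -0.64), and 10 were lower with the length offset. With library totals 0 were called higher and 15 lower. Of all 17534 genes 4176 were called lower with the length offset. With library totals 2030 were called higher and 8421 lower. As scaled by TMM, the activin receptor gene Acvr2b fell by 2.17 (SE 0.33) and the inhibitory Smad6 by 1.79 (SE 0.18). The signal transducer Smad5 fell by 1.37 (SE 0.12) and Bmp6 by 1.33 (SE 0.13). In GB over young vehicle libraries 5 rose and 12 fell. There the target gene Id1 and the ligand gene Bmp4 rose by 1.74 (SE 0.34) and 1.53 (SE 0.29), and Acvr2b and Smad5 fell by 3.12 (SE 0.33) and 1.53 (SE 0.12). Id1 rose by 0.99 with the length offset and Bmp4 by 0.96 with library totals. Over aged vehicle 10 of the 24 were not called with GB, near the background, where 53.2% of all genes were called. Over young vehicle 7 of the 24 were not called with GB, where 53.6% of all genes were called. With age the background was 8.6%.

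Of 14 other genes known to rise in denervated mouse or rat muscle, 4 rose and 0 fell in aged over young vehicle libraries, with a list median of 0.85. They were Ankrd1, a stretch-responsive sarcomere protein (2.48, SE 0.24), Kcnn3, a small-conductance potassium channel (1.95, SE 0.24), Cdkn1a, a cell cycle inhibitor (1.70, SE 0.32), and Eda2r, the receptor of ectodysplasin A2 (0.95, SE 0.20). The Cdkn1a and Eda2r calls were lost without young vehicle replicate 3 (edgeR adjusted p = 0.0611 and 0.0568), and Eda2r also without aged vehicle replicate 3 (0.0569). With age 7 of the 14 had an unadjusted edgeR p under 0.05. With GB over aged vehicle 3 rose and 3 fell. With the length offset 2 were called higher and 1 lower, where 4023 of all 17534 genes were called higher and 4176 lower. Kcnn3 fell by 3.56 (SE 0.27), with 0.509, 1.08 and 1.22 CPM in GB, 10.5, 11.1 and 11.5 CPM in aged vehicle and 2.70, 2.86 and 3.02 CPM in young vehicle libraries. Kcnn3 is 10451 bases long and fell by 2.94 with the length offset. Like Hdac9 and Dach2, it was lowest with GB and highest in aged vehicle. By mean, Smad6, Bmp6 and Dach1 among others had the same order. How many of all genes share it was not counted. Sln, the sarcolipin gene, and Uchl1, a deubiquitinase gene, rose by 1.80 (SE 0.36) and 1.65 (SE 0.23), while Myh8, the perinatal myosin gene, fell by 0.75 (SE 0.21) and was not called with the length offset (edgeR adjusted p = 0.871). With the offset Sln and Uchl1 rose by 1.08 and 1.04, and with library totals Uchl1 rose by 1.09 and Myh8 fell by 1.31. In GB over young vehicle libraries 6 rose and 2 fell, and the rises of Mt1, Sln, Ankrd1 and Uchl1 were 4.25 (SE 0.68), 2.63 (SE 0.37), 2.55 (SE 0.24) and 2.03 (SE 0.24). With GB 8 of the 14 were not called over aged and 6 over young vehicle, where 53.2% and 53.6% of all genes were called. With age 8.6% of all genes were called, 4.32% higher and 4.28% lower.

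**Figure D4:**
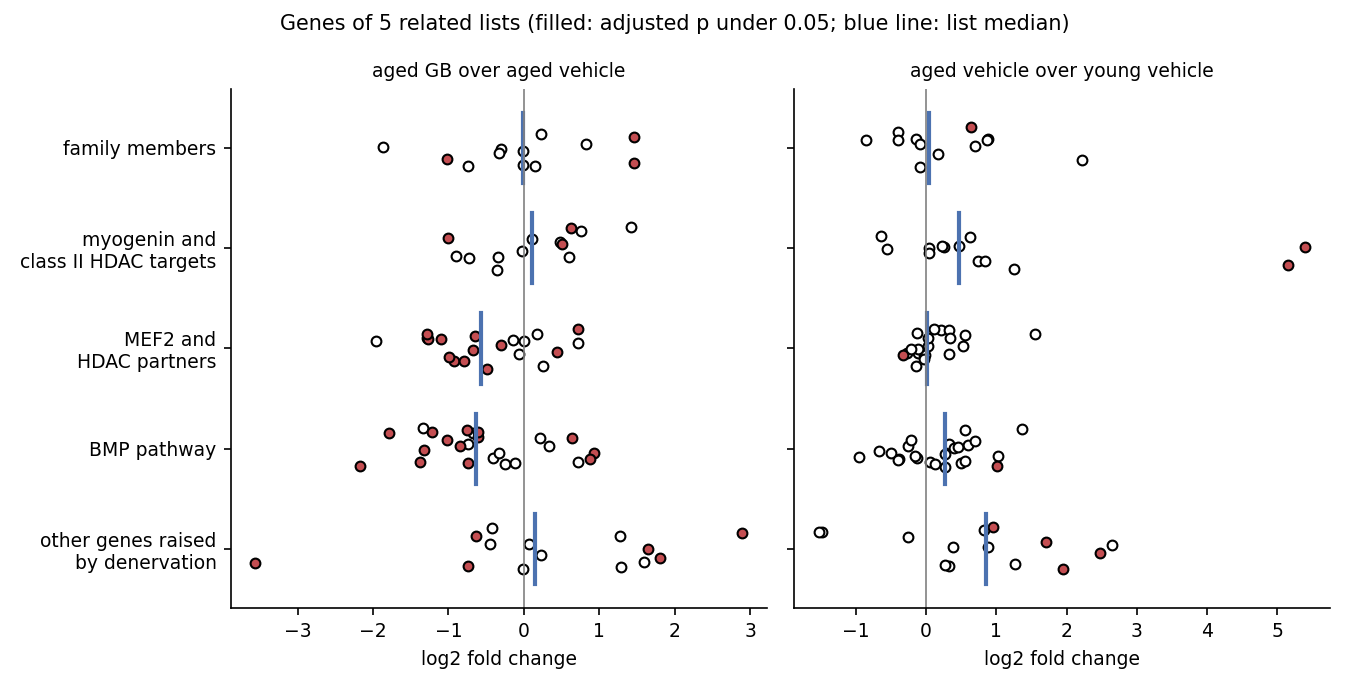
Each point is a tested gene of 1 of 5 lists (y axis, jittered) at its log2 fold change (x axis) for GB over aged vehicle on the left and aged over young vehicle on the right, filled where called, with the list median as a blue line. On the left the MEF2 and BMP lists have medians of -0.57 and -0.64 as scaled by TMM, with 11 genes called lower in each (4 and 10 with the length offset), and on the right 0 to 4 genes of a list are called higher. With the length offset 4176 of all 17534 genes were called lower in GB over aged vehicle.

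Aged vehicle replicate 1 was the highest of the 3 aged vehicle libraries in Hdac4, Myog, Gadd45a and Ncam1 among the 9 genes, and in the related genes Chrnd, Trim63, Cdkn1a, Gadd45g and Mt1. Trim63 was at 593 CPM in that library and at 216 and 245 CPM in aged vehicle replicates 2 and 3. Mt1, a metallothionein gene, was at 123 CPM in it and at 29.5 and 30.3 CPM in the others. Aged vehicle replicate 2 was the lowest of its group in Hdac4, Myog, Runx1, Ncam1, Gadd45a and Gdf5, and the highest in Hdac9, Dach2 and Nnat.

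**Figure D5:**
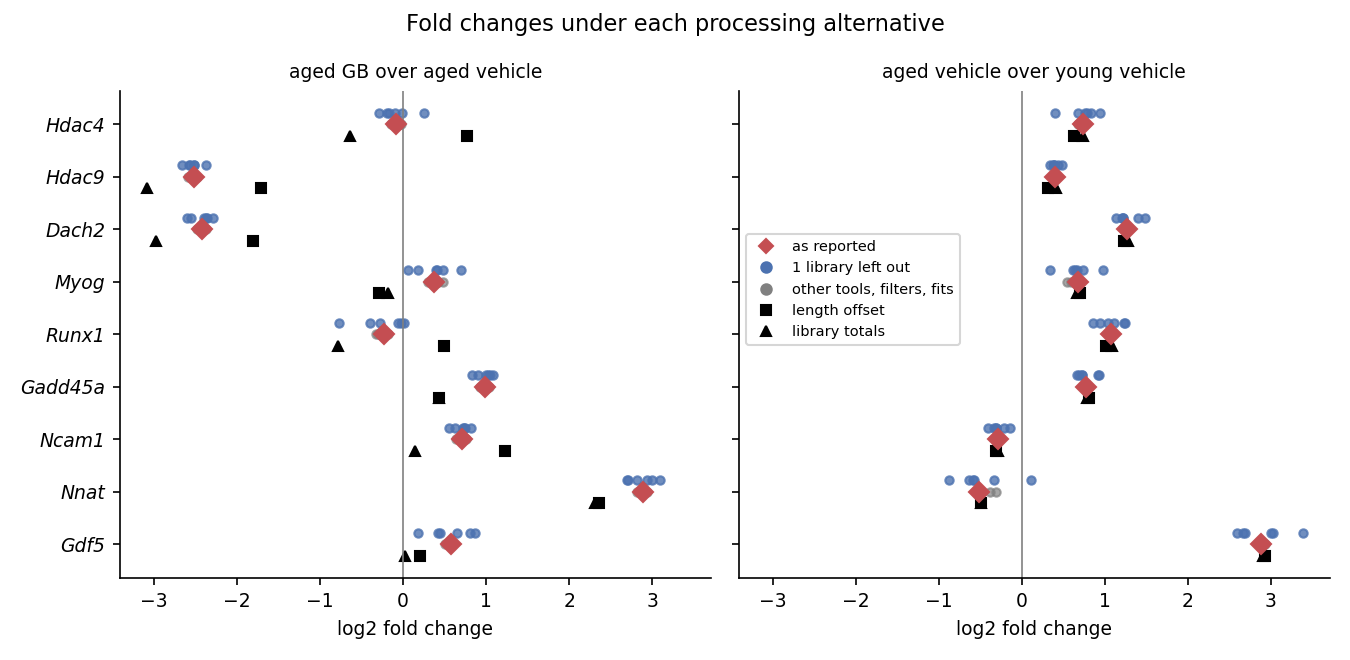
The log2 fold change (x axis) of each of the 9 genes (y axis) is plotted as reported (red) and under each processing alternative for GB over aged vehicle on the left and aged over young vehicle on the right. On the left the length offset and library totals move Hdac4 to 0.77 and -0.64 and Myog to -0.29 and -0.18, while Hdac9 stays between -3.09 and -1.71 and Nnat between 2.32 and 3.09.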

How the data were processed

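The values deposited by the authors are whole-number counts for each gene and library, not normalized, beside gene lengths. FastQC, HISAT2, SAMtools and DESeq2 are named in the submitters' processing notes, as are the builds GRCm39 and mm10. Which counter and annotation were used, and whether strand was, is not given in the sources used here. Groups and replicate numbers came from the sample titles. Nothing in the labels says that each library is a different animal, and p-values therefore measure the spread from library to library alone, part of which can be technical.

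The test was edgeR 4.0.16 (R 4.3.3): filterByExpr (minimum count 10, total 15), TMM factors, 1 quasi-likelihood fit with robust=TRUE to all 9 libraries, and two-sided p-values adjusted by Benjamini-Hochberg over 17534 genes. The SE is the log2 fold change divided by the square root of F. Replicates of a group differed by more than sampling noise (chi-square per degree of freedom of 16.6 to 60.4). The procedure was also run on simulated counts with few genes changed and no trend of change on gene length. The GB comparisons differ in both, so that run cannot speak for them. The length offset is each library's lowess trend (span 0.3) of centred log2 CPM (prior count 2) on log length. Promoters are from RefSeq on GRCm38.p6, exon overlaps from GENCODE M21. The 9 genes, lists, tests and alternatives were chosen with earlier results of these data known. From each related list, up to 4 called genes per comparison with the largest absolute log2 fold change and 1 CPM or more in the group with the higher mean were named, and the gene closest to each of the 9 by root mean square difference of centred log2 CPM, symbols of predicted genes and clones left out. Mymx with age, and Chrnd, Trim63, Cdkn1a, Gadd45g and Mt1 in single libraries, were named after their values were seen. Exons of genes on the other strand also overlap Runx1, Ncam1, Hdac4, Nnat and Gdf5, so their values are uncertain where strand was not used. Alternatives were other scalings, filters, DESeq2 1.42.0, limma-voom (limma 3.58.1), the compared groups alone, the replicate block, the length offset and leaving out each library. Of value columns matched to no sample there were 0.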

Additional observations from a re-analysis of the deposited data

How the results depend on the processing

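With 3 libraries a group, genes called in aged over young vehicle numbered 1508, and 2279 with DESeq2. With 1 library left out they numbered 749 to 1456, falling to 749 without young vehicle replicate 3, 823 without aged vehicle replicate 3, 866 without young vehicle replicate 2 and 935 without aged vehicle replicate 2. Of the 9 genes 3 were called with age, 5 with DESeq2 and 2 to 5 with 1 library left out, 5 being without aged vehicle replicate 2. In GB over aged vehicle 5 of the 9 were called, 5 or 6 under every alternative, and in GB over young vehicle 7, with 5 to 8 under the alternatives. With library totals in place of TMM the median over all genes tested in GB over aged vehicle was -0.62, not -0.051 on the log2 scale, and the share of calls that were higher was 19.4%, not 45.9%, so directions there are relative to the TMM scale. In GB over young vehicle that share was 19.9%, not 46%. Over 402 alternative values of the 9 genes in 3 comparisons 363 kept direction and side of the threshold, 14 lost a call, 17 gained one and 8 changed sign.

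The sign changes in GB over aged vehicle were Myog at -0.18 with library totals and -0.29 with the length offset, Runx1 at 0.50 with the length offset and 0.0063 without GB replicate 3 (-0.77 to 0.0063 with 1 library left out), Hdac4 at 0.77 with the length offset and 0.25 without aged vehicle replicate 1, and Chrnb1 at -0.065 with library totals. In GB over young vehicle Ncam1 was at -0.14 with library totals, and in aged over young vehicle Nnat was at 0.10 without young vehicle replicate 3 (-0.88 to 0.10 with 1 library left out). The cause was not tested. Same-numbered libraries did not pair (correlations of their deviations of -0.028 to 0.057 over 9 pairs, and 1 of 9 libraries correlated best with its own number). With the replicate number as a block 3 of the 9 genes were called with age, 5 in GB over aged vehicle and 7 in GB over young vehicle. The counts of Gdf5 in young vehicle libraries, 4 to 8, limit its fold change, and it was not tested under the filter of 1 CPM.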
